A study of Sus scrofa with 19 samples.

Results

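The troponin and tropomyosin genes of the cardiac thin filament were described across the left ventricular myocardium of 19 pigs. The members were 8 genes chosen by symbol: TNNI1, TNNI3, TNNT1, TNNT2, TNNC1, TPM1, TPM2 and TPM3. Of these, 7 were matched to a row of counts among 25879 genes in the count tables, and all 7 passed the filter on low counts that left 13552 genes for testing. TNNI3, the inhibitory troponin subunit of the adult heart, had no matched row, and its expression was not analysed here.

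Bulk RNA-seq had been made from 1 library per pig, and all animals were labelled as female large whites. The DOX group (n = 5) had received the anthracycline doxorubicin at 60 mg/m2 in 3 cycles and the MYO group (n = 5) Myocet, its liposomal form, in the same way, with anterior wall tissue taken 3 months after the first injection. The RemoLV group (n = 3) had undergone a 90 min percutaneous occlusion of a coronary artery with reperfusion, and the sampled tissue was posterior wall, remote from the infarct, at 6 months. The Hyper group (n = 3) had developed pressure overload from an artificial stenosis of the aortic isthmus, and anterior wall was taken at 6 months. The Control group (n = 3) gave anterior wall at 6 months, being called sham in the labels and untreated in the methods. The DOX and MYO libraries came from an earlier study and a different follow-up, so the drug, the study and the time cannot be told apart in any comparison with the other groups. No further allele or agent was labelled.

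Troponin is the calcium switch of the sarcomere. Its C subunit binds calcium, its I subunit holds the actin filament off myosin at rest, and its T subunit fastens the complex to tropomyosin, a coiled-coil rod that lies along actin. Mammalian hearts use a slow skeletal I isoform (TNNI1) before birth and replace it with the cardiac one (TNNI3) afterwards, whereas TNNT2 and TNNC1 serve the heart throughout. TPM1 encodes the main striated tropomyosin of the heart, TPM2 the beta chain, which is more abundant in fetal and slow skeletal muscle, and TPM3 a slow skeletal chain that also has cytoplasmic forms.

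A conflict of names and a mismatch of markers bear on every comparison. The count files and the authors' expression table put 8 of the 19 libraries in different groups: the 3 libraries titled RemoLV in the count files carried Control names in the table, the 3 titled Control carried RemoLV names, and 1 DOX and 1 MYO library were exchanged. Within Hyper, replicates 1 and 3 of the count files carried each other's number in the table, and replicate numbers below follow the count files. Which naming is right was not decided here. Groups below follow the count file titles, each library is meant as labelled there, and values under the table's names are given for the members' main results. The DOX and MYO libraries as 1 set of 10 and the 3 Hyper libraries were the same under both namings. The 3 RemoLV-labelled libraries also held little of the defining ventricular light chain. MYL2, the regulatory light chain of the ventricle, was at 18.6 to 115 CPM (counts per 1000000 reads) there against 8975 to 18077 in the other 16 libraries. MYL4, the atrial light chain, was at 6029 to 8130 CPM against at most 21.9. The summed CPM of 8 matched atrial markers was 10110 to 13611 in these libraries, 791 to 2447 in DOX and MYO, 205 to 1318 in Hyper and 97.9 to 152 in Control, and 2 of the 6 ventricular markers were under 1 CPM in every RemoLV-labelled library. The summed CPM of the 6 was 25022 to 29133 there, 44996 to 59495 in DOX and MYO, 55808 to 66007 in Hyper and 50068 to 74561 in Control. MYH7 and MYL3 stayed abundant in RemoLV, at 23761 ± 1950 and 2579 ± 490 CPM (SD, n = 3). DDX3Y, a gene of the Y chromosome, lay between 96.1 and 177 CPM across DOX and MYO, whereas the other 9 libraries reached at most 0.137 CPM, although all animals were labelled female. The part of these differences in the results below was not tested.

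Library totals ran from 9527710 to 20370209 counts. CPM here are counts over library sizes scaled by the trimmed mean of M-values (TMM), which sets the bulk of genes equal between libraries. The scaled sizes of Control replicates 1 and 3 were 0.735 and 0.696 of their totals, while that of Control replicate 2 was 0.965. With plain totals in place of TMM, a setting chosen after seeing the data, the median log2 fold change of all genes against Control moved from 0.03 to 0.45 in DOX, from 0.02 to 0.44 in MYO and from 0.02 to 0.52 in RemoLV. The genes called higher and lower against Control then went from 2842 and 2862 to 5622 and 705 in DOX, from 2804 and 2944 to 5499 and 753 in MYO, and from 3136 and 3257 to 6178 and 1038 in RemoLV. A fall below is thus a fall relative to the bulk of genes. Whether it held on plain totals is stated for each member called lower against Control, and for the thin-filament genes and regulators as lists. It is not given for the markers of other cells. Fewer cardiomyocytes and less RNA of a gene per cell cannot be told apart in bulk tissue.

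The groups against Control were compared for the 7 measured members with edgeR's quasi-likelihood test, and the 4 comparisons share the 3 Control libraries. In DOX, 1 of 7 members was higher, where 21.0% of all genes tested were called higher, and 2 were lower, where 21.1% were called lower. In MYO, 1 was higher and 2 were lower, against 20.7% and 21.7% of all genes. In RemoLV, 1 was higher and 5 were lower, against 23.1% and 24%. In Hyper, 0 members were called in either direction, as were 0% of all genes, although 2418 genes had an unadjusted p under 0.05, none of them a member. The DESeq2 Wald test called 111 genes higher and 206 lower in Hyper, again with 0 members, and leaving out Control replicate 2 brought edgeR's calls to 1285 and 1253. In RemoLV against Hyper, 1 member was higher and 4 were lower, against 17.0% and 18.6% of all genes. In DOX and MYO together against Hyper, 0 were higher and 2 lower, against 15.8% and 16.9%. In RemoLV against the mean of the other 4 groups, 1 was higher and 5 lower, against 20.0% and 20.1%. Between DOX and MYO no member passed, 0% of all genes passed in either direction, and 960 genes had an unadjusted p under 0.05, TPM3 among them, while DESeq2 called 2 genes, neither of them a member. Those called in the last of these RemoLV comparisons were TNNI1 at 7.62, TNNT1 at -1.28, TNNC1 at -1.01, TPM2 at -0.995, TNNT2 at -0.54 and TPM3 at -0.23 on the log2 scale, the TPM3 call being lost without RemoLV replicate 2 or 3 or with at least 10 counts required in every library. On plain totals the members called higher and lower numbered 4 and 0 in DOX, 3 and 0 in MYO and 1 and 3 in RemoLV against Control, 1 and 3 in RemoLV against Hyper, and 3 and 1 in DOX and MYO against Hyper. The genes called upward and downward among all tested were then 4118 and 964 in RemoLV against Hyper and 3894 and 760 in DOX and MYO against Hyper. The median log2 fold change of the 7 members was -0.83 in RemoLV against Control and -0.01 in DOX, beside 0.02 and 0.03 for all genes tested.

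**Figure D1:**
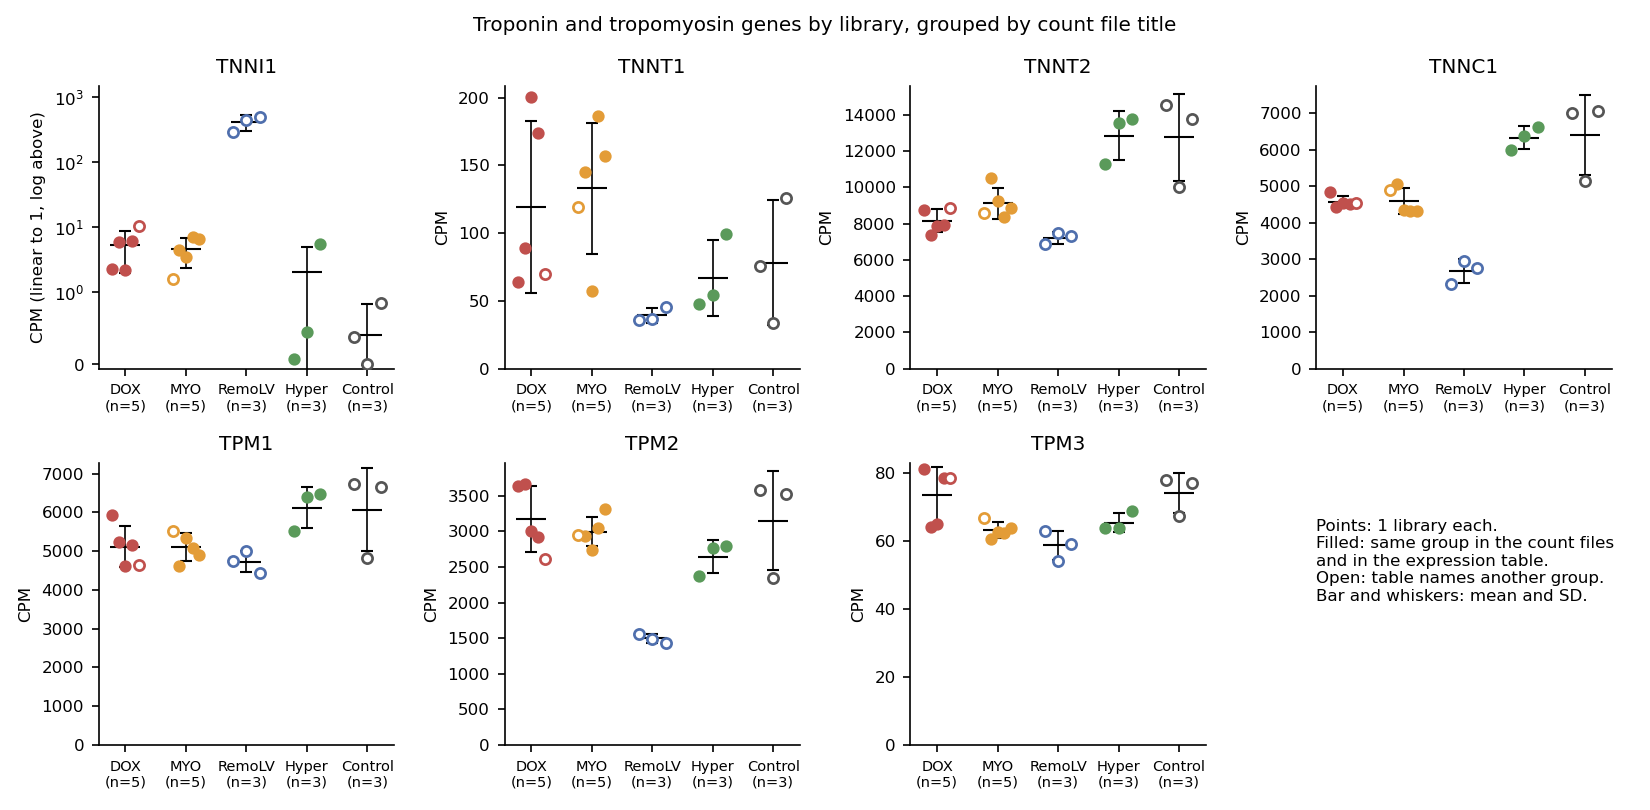
CPM (vertical axes) of the 7 measured genes in each of the 19 libraries, grouped by count file title, with the mean and SD as bars; open points are libraries that the expression table names as another group, and the TNNI1 axis is linear up to 1 and logarithmic above. TNNI1 in the 3 RemoLV-labelled libraries was at 289 to 502 CPM, above every other library, and TNNC1 and TPM2 were lowest in the same 3 libraries.

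TNNI1 (ENSSSCG00000024061, chr10:23788279-23800554, minus strand, Sscrofa11.1), the slow skeletal inhibitory subunit, varied most. The RemoLV-labelled libraries held 289, 456 and 502 CPM (4106, 8092 and 5628 reads). The DOX libraries held 2.25, 5.85, 2.20, 6.11 and 10.5 CPM (36, 69, 33, 100 and 125 reads) and the MYO libraries 1.58, 4.50, 3.46, 7.10 and 6.60 CPM (20, 65, 49, 82 and 78 reads). The lowest RemoLV-labelled library was 27.5 times above the highest of the other 16. The Hyper libraries held 0.0687, 0.452 and 5.50 CPM, or 1, 6 and 82 reads, and the Control libraries 0.373, 0 and 0.846 CPM, or 5, 0 and 12 reads. A count of 0 among the 17458641 reads of Control replicate 2 allows up to 0.172 CPM on the unscaled total, for counting error only. Every DOX and MYO library lay above every Control library, whereas Hyper replicate 3 lay within the DOX and MYO range and the other two Hyper libraries lay within the Control range.

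TNNI1 rose by 10.04 ± 1.21 (log2 fold change ± SE) in RemoLV against Control (adjusted p = 8.71e-07) and by 7.66 ± 0.77 against Hyper (adjusted p = 3.14e-06). With 1 library left out these ran from 9.37 to 11.20 and from 7.09 to 10.63, highest without Control replicate 3 and without Hyper replicate 3. It rose by 3.75 ± 1.20 in DOX (adjusted p = 0.00627) and by 3.55 ± 1.20 in MYO (adjusted p = 0.00914) against Control. With Control at 0 to 12 reads these fold changes are imprecise: they went to 4.92 in DOX and 4.72 in MYO without Control replicate 3 and to 3.08 and 2.89 without Control replicate 2, and passed each time. The difference was 2.38 ± 1.29 in Hyper against Control (adjusted p = 0.291) and turned to -0.60 without Hyper replicate 3, which alone held 82 reads. In DOX and MYO against Hyper it was 1.27 ± 0.70 (adjusted p = 0.170) and reached 4.24, past the threshold, without the same library. The rises against Control held on plain totals, at 4.21 in DOX, 4.01 in MYO and 10.58 in RemoLV. Under the table's names, with the 3 high libraries as Control, the same comparisons gave -6.85, -6.02 and -10.04.

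**Figure D2:**
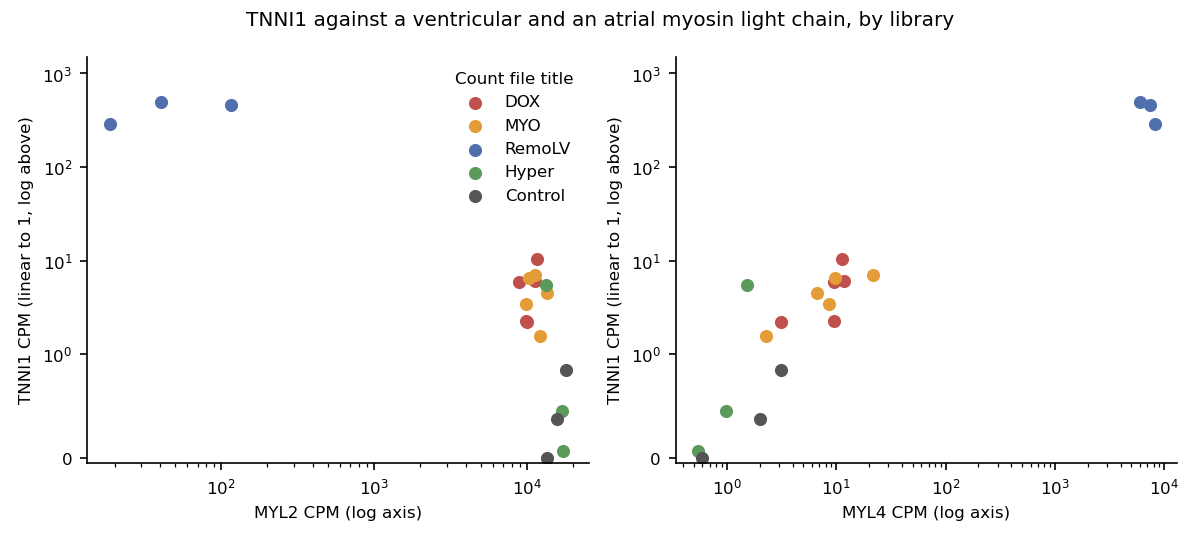
TNNI1 CPM (vertical axes, linear to 1 and logarithmic above) against CPM of the ventricular light chain MYL2 (left) and the atrial light chain MYL4 (right, both logarithmic), 1 point per library coloured by count file title. The 3 RemoLV-labelled libraries stand apart at low MYL2 (18.6 to 115 CPM), high MYL4 (6029 to 8130 CPM) and high TNNI1.

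The group with the highest TNNI1 also had the highest atrial light chains. MYL7, the atrial regulatory light chain, was at 3281 to 4770 CPM in the RemoLV-labelled libraries, 737 to 2379 in DOX and MYO, 172 to 1229 in Hyper and 59.1 to 111 in Control. The Hyper library with 82 TNNI1 reads was also the one in which the summed atrial markers reached 1318 CPM. Most of that sum was MYL7, at 1229 CPM, above the 59.1 to 111 CPM of Control. MYL4 in the same library was at 1.54 CPM, below 2 of the 3 Control libraries. The fast troponin genes TNNI2, TNNT3 and TNNC2 stayed at or below 0.508 CPM in every library, and 5 of the 7 matched skeletal markers were under 1 CPM in every library of every group. The other two were CASQ1, a calcium store protein, at 5.35 to 53.8 CPM, and MYBPC2, a myosin-binding protein, at 0 to 8.40 CPM. The skeletal sum was 11.9 to 14.7 CPM in RemoLV and 9.83 to 56.2 in the other groups.

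The bases upstream of TNNC1 and TPM2 are shown because these genes were lowest in the RemoLV-labelled libraries and their falls held on plain totals. Each run holds the 250 bases before the RefSeq gene start on Sscrofa11.1, read 5′ to 3′ on the gene's strand, with capitals marking matches to the E-box CANNTG or to the MCAT motif CATTCC on either strand. The gene start of TPM2 comes from a predicted transcript, 774 bases before the curated one.
TNNC1 (chr13:34594321-34594570, strand -): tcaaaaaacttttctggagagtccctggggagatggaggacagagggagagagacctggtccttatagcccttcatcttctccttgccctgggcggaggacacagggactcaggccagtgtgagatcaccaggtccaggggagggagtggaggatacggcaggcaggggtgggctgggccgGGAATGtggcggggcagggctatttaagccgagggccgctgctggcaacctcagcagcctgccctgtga
TPM2 (chr1:236410391-236410640, strand -): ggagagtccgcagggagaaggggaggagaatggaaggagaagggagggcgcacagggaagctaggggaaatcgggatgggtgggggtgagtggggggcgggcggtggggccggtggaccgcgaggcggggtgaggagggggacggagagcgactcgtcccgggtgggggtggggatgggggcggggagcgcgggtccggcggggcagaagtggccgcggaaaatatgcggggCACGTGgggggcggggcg
The E-box letters stood 18 bases before the TPM2 start, and 61.9% of 19556 protein-coding genes held at least 1 such match in the same window. TNNT1, TPM1 and TPM3 also held 1 each, 236, 62 and 24 bases before the start. The MCAT letters stood 69 bases before the TNNC1 start, on the opposite strand, and 10.3% of the genes held them. No motif result is given for TNNI1. The TATA box, as TATAAA, had no match in the windows of TNNT1, TNNT2, TNNC1, TPM1, TPM2, TPM3 and TNNI3 and was found in 9.8% of all windows. The GATA motif, as AGATAA, had none either and was found in 8.1%. The MEF2 motif had none and was found in 2.3%. The motifs did not overlap one another in the sequences shown.

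TNNT2 (ENSSSCG00000023031, chr10:23749528-23759696, minus strand), the cardiac tropomyosin-binding subunit, lies beside TNNI1 with only LAD1, a gene of epithelial anchoring filaments, between them. TNNT2 was at 6855, 7470 and 7302 CPM in RemoLV, 11284, 13530 and 13748 in Hyper, and 14524, 10037 and 13771 in Control. It was at 8763, 7371, 7877, 7918 and 8854 CPM in DOX and at 8571, 10542, 9270, 8341 and 8853 in MYO. The RemoLV-labelled libraries overlapped no Hyper or Control library, and the DOX libraries overlapped neither, while the highest MYO library lay above Control replicate 2.

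TNNT2 fell by 0.83 ± 0.14 in RemoLV (adjusted p = 0.000148), by 0.65 ± 0.13 in DOX (adjusted p = 0.000564) and by 0.49 ± 0.13 in MYO (adjusted p = 0.00454) against Control on the log2 scale. It fell by 0.83 ± 0.14 in RemoLV against Hyper (adjusted p = 0.000187) and by 0.58 ± 0.11 in DOX and MYO against Hyper (adjusted p = 0.000703), and it differed by 0.01 ± 0.14 between Hyper and Control (adjusted p = 0.983). On plain totals the difference was -0.29 in RemoLV, which still passed, -0.20 in DOX and -0.04 in MYO, which did not, and -0.32 in DOX and MYO against Hyper, which did. The table's names gave 0.83 for RemoLV, 0.17 for DOX, 0.35 for MYO and 0.83 for Hyper against Control, of which that in DOX alone did not pass (adjusted p = 0.323). LAD1 was at 183 to 228 CPM in RemoLV, 127 to 211 in DOX and MYO, 53.5 to 69.3 in Hyper and 60.9 to 68.2 in Control, being highest in the group in which TNNT2 was lowest. PKP1, the nearest gene on the other side of TNNT2, was at most 0.533 CPM.

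TNNT1 (ENSSSCG00000025353, chr6:59351445-59365584, minus strand), the slow skeletal T subunit, lies next to TNNI3. It was at 63.8, 88.8, 200.1, 173.9 and 69.8 CPM in DOX and at 118.9, 145.2, 57.2, 186.0 and 157.0 in MYO. It was at 35.8, 36.5 and 45.4 CPM in RemoLV, 47.5, 54.4 and 99.3 in Hyper, and 75.7, 33.4 and 125.6 in Control. The DOX and MYO values were the highest but overlapped Hyper and Control, and the Control libraries spread 3.76-fold.

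The TNNT1 difference from Control was 0.61 ± 0.43 in DOX (adjusted p = 0.277), 0.77 ± 0.43 in MYO (adjusted p = 0.173), -0.995 ± 0.49 in RemoLV (adjusted p = 0.104) and -0.22 ± 0.49 in Hyper (adjusted p = 0.843). Against the mean of the other 4 groups, TNNT1 fell by 1.28 ± 0.38 in RemoLV (adjusted p = 0.0197), a call that was lost without RemoLV replicate 1 or 2. It held on plain totals (-1.01), and under the table's names the difference was -0.04 and did not pass. On plain totals TNNT1 passed the threshold in DOX (1.13), in MYO (1.29) and in DOX and MYO against Hyper (1.16). Under the table's names it was higher than Control in DOX (1.72) and in MYO (1.65), both past the threshold. Without Control replicate 2, the RemoLV difference from Control was -1.37 and passed. With 1 library left out it ran from -1.37 to -0.48. The DOX and MYO differences ran from 0.24 to 1.13 and from 0.40 to 1.29, lowest without Control replicate 2 and highest without Control replicate 3, and never passed.

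TNNC1 (ENSSSCG00000011441, chr13:34591571-34594320, minus strand), the calcium-binding subunit of slow and cardiac muscle, was at 2319, 2953 and 2770 CPM in RemoLV, 5993, 6364 and 6637 in Hyper, and 7002, 5149 and 7059 in Control. It was at 4837, 4432, 4540, 4522 and 4541 CPM in DOX and at 4903, 5066, 4361, 4325 and 4317 in MYO. The order was RemoLV below DOX and MYO, and these below Hyper and Control, with no library of one set reaching the next. The DOX and MYO values did not separate from each other, and Hyper lay within the Control range.

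TNNC1 fell by 1.26 ± 0.13 in RemoLV against Control (adjusted p = 9.89e-07) and by 1.24 ± 0.13 against Hyper (adjusted p = 1.39e-06). It fell by 0.49 ± 0.11 in DOX (adjusted p = 0.00249) and by 0.48 ± 0.11 in MYO (adjusted p = 0.00263) against Control, and by 0.47 ± 0.10 in DOX and MYO against Hyper (adjusted p = 0.00188). On plain totals the RemoLV differences were -0.72 and -0.90 and still passed, whereas DOX was at -0.04, MYO at -0.03 and DOX and MYO against Hyper at -0.21, none of which did. Under the table's names TNNC1 was higher than Control by 1.26 in RemoLV, 0.79 in DOX, 0.75 in MYO and 1.24 in Hyper.

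TPM1 (ENSSSCG00000004570, chr1:108986981-109016090, minus strand) changed least among the abundant members. It was at 4447 to 5002 CPM in RemoLV, 4618 to 5925 in DOX and MYO, 5508 to 6478 in Hyper and 4829 to 6737 in Control, so its largest and smallest values differed by 1.52 times. It fell by 0.36 ± 0.14 in RemoLV against Control (adjusted p = 0.0362) and by 0.37 ± 0.14 against Hyper (adjusted p = 0.0396). The first call was lost without RemoLV replicate 1 or 3 or Control replicate 1 or 3, with values down to -0.29. The second was lost without any 1 RemoLV-labelled library or without Hyper replicate 2 or 3. Both were also lost when at least 10 counts were required in every library (adjusted p = 0.0753 and 0.0712). On plain totals the same differences were 0.17 and -0.03 and did not pass, and under the table's names they were 0.36, which passed, and -0.01. TPM1 did not pass in DOX (-0.25 ± 0.12, adjusted p = 0.108), unless DOX replicate 1 (-0.32) or Control replicate 2 (-0.39) was left out, or in MYO (-0.25 ± 0.12, adjusted p = 0.0991). In DOX and MYO against Hyper it was at -0.26 ± 0.11 (adjusted p = 0.0696). That difference passed with DESeq2 (0.0408), with only the groups compared (0.0411) and without DOX replicate 1 (0.0358).

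TPM2 (ENSSSCG00000005316, chr1:236402249-236410390, minus strand), the beta tropomyosin, was at 1556, 1494 and 1438 CPM in RemoLV, 2376, 2763 and 2798 in Hyper, and 3574, 2347 and 3528 in Control. It was at 3640, 3669, 2998, 2923 and 2616 CPM in DOX and at 2949, 2940, 2743, 3041 and 3307 in MYO. The RemoLV-labelled libraries lay below all others, while the other 4 groups overlapped.

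TPM2 fell by 1.07 ± 0.16 in RemoLV against Control (adjusted p = 3.28e-05) and by 0.82 ± 0.16 against Hyper (adjusted p = 0.000500). On plain totals these were -0.53 and -0.48 and still passed. The differences from Control were 0.01 ± 0.14 in DOX (adjusted p = 0.966), -0.07 ± 0.14 in MYO (adjusted p = 0.702) and -0.25 ± 0.16 in Hyper (adjusted p = 0.393), which reached -0.43 and passed without Control replicate 2. On plain totals TPM2 was higher than Control by 0.47 in DOX and by 0.39 in MYO and higher in DOX and MYO than in Hyper by 0.48, all past the threshold. Under the table's names it was higher than Control by 1.07 in RemoLV, 1.11 in DOX, 0.97 in MYO and 0.82 in Hyper.

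TPM3 (ENSSSCG00000006556, chr4:95542329-95572946, plus strand) was low and even, at 54.3 to 62.8 CPM in RemoLV, 63.8 to 68.7 in Hyper, 67.5 to 77.9 in Control, 64.1 to 81.3 in DOX and 60.6 to 66.8 in MYO. It fell by 0.34 ± 0.10 in RemoLV against Control (adjusted p = 0.0135), a call lost without RemoLV replicate 2 and with only the groups compared in the fit (adjusted p = 0.0604). On plain totals the same difference was 0.18 and did not pass, and under the table's names it was 0.34 and passed. Plain totals also put TPM3 above Control in DOX (0.42) and above Hyper in DOX and MYO (0.32), both past the threshold. MYO against Control gave -0.23 ± 0.09 (adjusted p = 0.0542) and passed with DESeq2 (0.0326), with its size factors (0.0391) and with only the groups compared (0.0465), while DOX against MYO gave 0.22 ± 0.08 (unadjusted p = 0.0155, adjusted p = 0.692). Without Control replicate 2, TPM1 and TPM3 passed in MYO against Control as well, which raised the members called there from 3 to 5. Among all genes tested the calls there also rose, from 2804 higher and 2944 lower to 3165 and 3146.

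**Figure D3:**
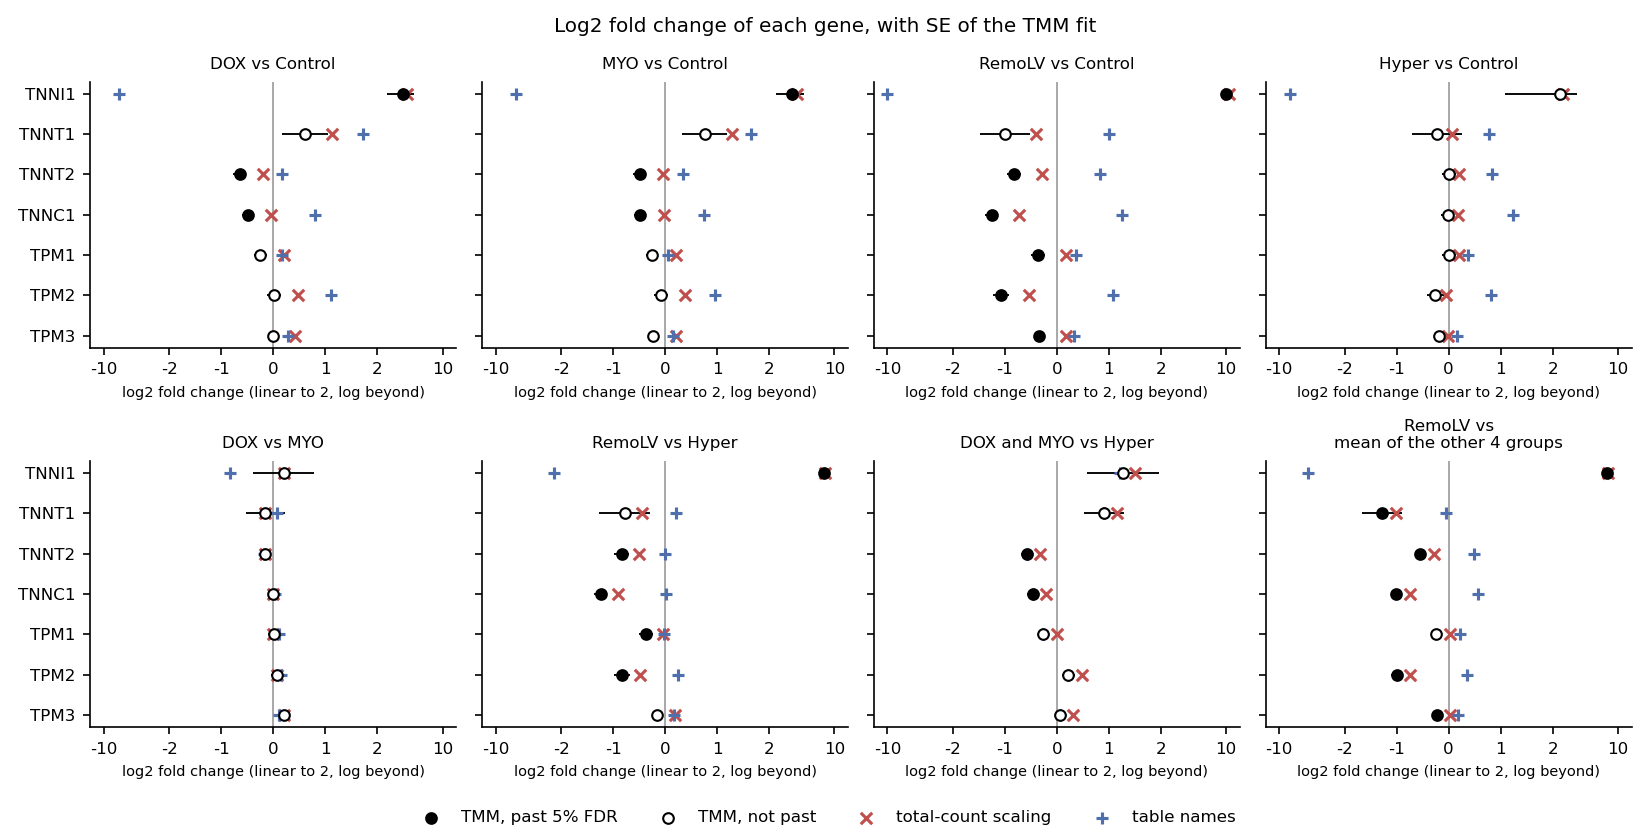
Log2 fold change (horizontal axes, linear to 2 and logarithmic beyond) of each gene in the 8 comparisons, with the SE of the TMM fit; filled circles passed an adjusted p of 0.05, crosses are plain totals and plus signs are the expression table's names. Plain totals moved the small falls in DOX and MYO towards or past 0, whereas TNNI1 stayed high and TNNC1 and TPM2 stayed low in RemoLV; the table's names turned the RemoLV differences from Control round.

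Ratios of read counts between 2 genes of 1 library do not depend on the scaling. Differences of their mean log2 values were tested by a 2-sided exact permutation test over libraries, in which 3 libraries against 3 cannot go below p = 0.10. TNNI1/TNNT2 stood in for the planned TNNI1/TNNI3 and was chosen after seeing the data, as were TNNC1/TNNT2 and TPM1/TNNT2. P-values were adjusted over 24 tests of the first 3 ratios and over 16 tests of the last pair.

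TNNI1 reads per 1000 TNNT2 reads were 42.2, 61.1 and 68.7 in RemoLV, 0.256, 0.794, 0.279, 0.772 and 1.19 in DOX, and 0.185, 0.427, 0.373, 0.851 and 0.745 in MYO. They were 0.00609, 0.0334 and 0.400 in Hyper and 0.0257, 0 and 0.0615 in Control. RemoLV lay above all other libraries, by 8.33 on the log2 scale against the other 16 (exact permutation p = 0.00103, the smallest it can give, adjusted p = 0.0124). DOX and MYO lay above Control by 5.00 and 4.70 (exact permutation p = 0.0179 for each, the smallest it can give, adjusted p = 0.0612), in 10 of 10 libraries. These sizes rest on a Control library at 0 reads and the pseudocount of 0.5, and ran from 3.72 to 5.93 in DOX and from 3.42 to 5.64 in MYO with 1 library left out, lowest without Control replicate 2 and highest without Control replicate 3. Against Hyper, DOX and MYO together were higher by 3.31 (exact permutation p = 0.0175, adjusted p = 0.0612), with a range of 2.07 to 4.80 on leaving out 1 library, highest without Hyper replicate 3, and with 1.79 as a ratio of group sums. With the table's names, the difference of RemoLV from the other 16 libraries was -5.51 (adjusted p = 0.0774).

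TPM2/TPM1 was 0.328, 0.299 and 0.323 in RemoLV, 0.431, 0.433 and 0.432 in Hyper, and 0.531, 0.486 and 0.530 in Control. It was 0.614, 0.701, 0.648, 0.567 and 0.563 in DOX and 0.534, 0.637, 0.513, 0.598 and 0.674 in MYO. The RemoLV, Hyper and Control libraries formed 3 ranges without overlap (exact permutation p = 0.1 for each pair, the smallest it can give), and the 3 Hyper values had an SD of 0.000719 (n = 3). DOX and MYO together exceeded Hyper by 0.48 on the log2 scale, in 10 of 10 libraries (exact permutation p = 0.0035, the smallest it can give, adjusted p = 0.028), and the size and p of this difference are the same under both namings, although under the table's names its adjusted p was 0.0612. Its adjusted p was 0.0612 to 0.0857 without any 1 Hyper library, with differences of 0.48. RemoLV lay below the other 16 libraries by 0.80 (exact permutation p = 0.00103, adjusted p = 0.0124), but under the table's names that difference was 0.04. The adjusted p of this comparison, and of the same one for TNNI1/TNNT2, was 0.0523 without any 1 RemoLV-labelled library.

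TNNT1 reads per 1000 TNNT2 reads ranged from 7.28 to 25.4 in DOX, from 6.17 to 22.3 in MYO, from 4.89 to 6.21 in RemoLV, from 4.02 to 7.22 in Hyper and from 3.33 to 9.12 in Control. DOX and MYO exceeded Hyper by 1.43 on the log2 scale (exact permutation p = 0.0105, adjusted p = 0.0612), with MYO replicate 3 within the Hyper range, and RemoLV and Control differed by 0.00 (exact permutation p = 0.9).

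TNNC1/TNNT2 was 0.338, 0.395 and 0.379 in RemoLV and between 0.470 and 0.601 in the other 16 libraries, lower by 0.49 on the log2 scale (exact permutation p = 0.00103, adjusted p = 0.0165). Without any 1 RemoLV-labelled library the adjusted p was 0.105, with differences of -0.54 to -0.42, and under the table's names the difference was 0.035. TPM1/TNNT2 was 0.609 to 0.691 in RemoLV, 0.471 to 0.488 in Hyper and 0.464 to 0.483 in Control, and RemoLV exceeded Control by 0.46 (exact permutation p = 0.1, the smallest it can give), a difference that became -0.46 with the table's names. In DOX and MYO it spread from 0.438 to 0.710. Hyper and Control differed by 0.00 in this ratio and by -0.02 in TNNC1/TNNT2, less than the pooled SD of 0.03 and 0.08.

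**Figure D4:**
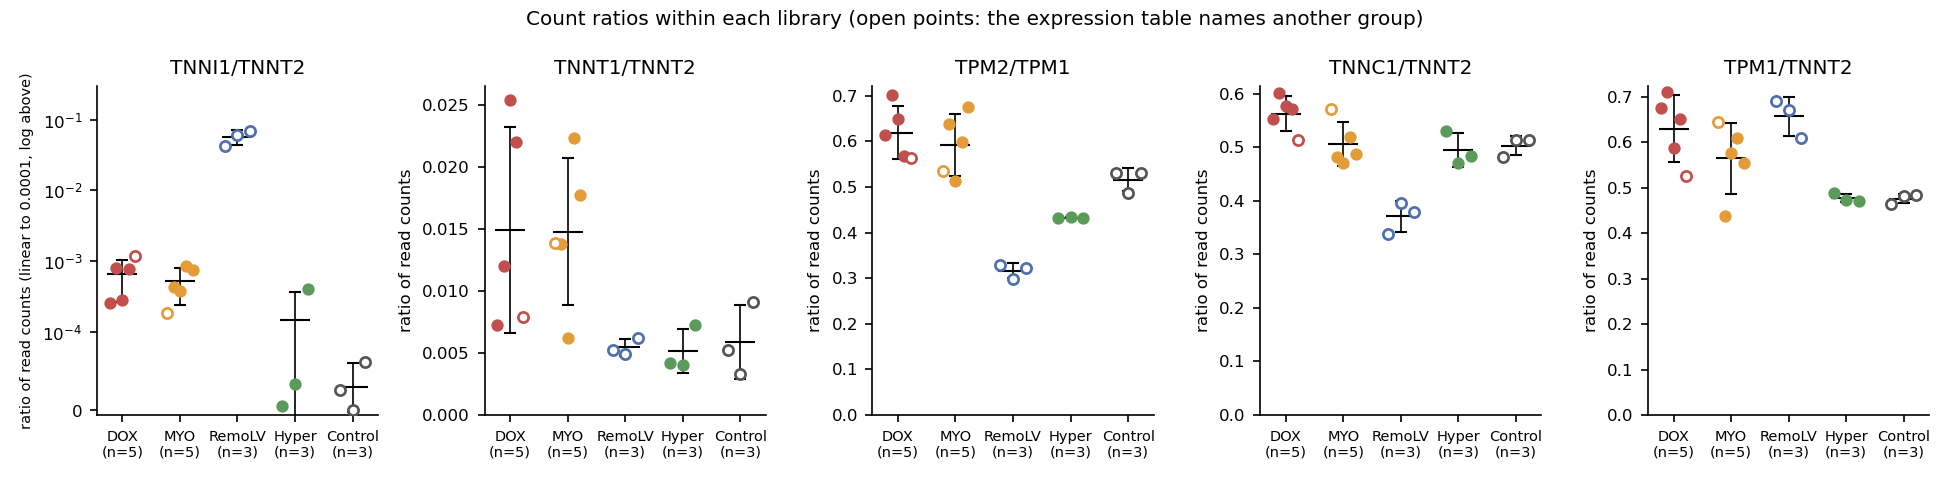
Ratios of read counts between 2 genes within each library (vertical axes; TNNI1/TNNT2 linear to 0.0001 and logarithmic above), grouped by count file title with mean and SD; open points are libraries that the expression table names as another group. TPM2/TPM1 fell into separate ranges in RemoLV (0.299 to 0.328), Hyper (0.431 to 0.433) and Control (0.486 to 0.531).

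Levels of different genes were set beside each other per kilobase of the curated RefSeq transcript. In Control, TNNT2 was at 15211 ± 2861 CPM per kb (SD, n = 3), TNNC1 at 12883 ± 2185, TPM1 at 5384 ± 955, TPM2 at 3091 ± 682, TNNT1 at 91.4 ± 53.9, TPM3 at 90.7 ± 7.13 and TNNI1 at 0.415 ± 0.433. The order of TNNT2 and TNNC1 and that of TNNT1 and TPM3 lay within their spread. In RemoLV, TNNI1 was at 424 ± 114 CPM per kb, above TNNT1 (45.9 ± 6.21) and TPM3 (71.8 ± 5.27) and below TPM2 (1468 ± 58.1). The annotated transcripts of TPM1 differ widely in length, and over all merged exons TPM1 in Control came to 1015 CPM per kb, below TPM2 at 1070, so the order of these tropomyosins depends on the length used.

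The 7 members did not move as 1 set over the 19 libraries. Pearson's r of log2 CPM was 0.87 between TNNT2 and TNNC1 and 0.79 between TNNT2 and TPM1, but -0.86 between TNNI1 and TNNC1 and 0.04 between TNNT1 and TNNT2. Without the 3 RemoLV-labelled libraries, TNNT2 and TNNC1 were at 0.95 and TNNI1 and TNNC1 at -0.58 over 16 libraries. Other pairs changed more: TNNI1 and TNNT1 went from -0.19 to 0.63, TNNI1 and TPM2 from -0.69 to 0.33, and TNNC1 and TPM2 from 0.74 to 0.03. Libraries of 1 group share their treatment and study, so these values describe group differences as well as libraries.

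Among the genes tested, those most like TNNI1 were DKK3 (r = 0.97), MYL4 (0.95) and ZNF385A (0.95), of which DKK3 and MYL4 were also on the atrial list. TNNT2 was most like NDUFA13 (0.95), UQCR10 (0.95) and NDUFB2 (0.95), which encode subunits of the respiratory chain. TNNC1 was most like PDE8A (0.95), EEF1G (0.95) and GORASP2 (0.95), TPM1 like COX6B (0.92), EIF5A (0.89) and PSMB7 (0.89), and TPM2 like DDA1 (0.94), DNAJB5 (0.94) and PKM (0.94). TNNT1 was most like NID2 (0.88), a basement membrane gene, SEPTIN9 (0.87) and KIAA0930 (0.86), and TPM3 like ACSL5 (0.90), PTPN9 (0.88) and PATL1 (0.83). Over the 16 libraries without RemoLV these values were 0.76, 0.67 and 0.75 for the genes most like TPM2 and 0.89, 0.85 and 0.80 for those most like TNNI1, and between 0.75 and 0.95 for the rest.

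Of 15 matched other genes of the thin filament, 11 were tested. In RemoLV against Control, 2 were higher and 7 lower, beside 23.1% and 24% of all genes. ACTC1, the cardiac actin, rose by 2.13 (adjusted p = 0.00117) to 9325 ± 471 CPM (SD, n = 3), and TMOD2, which caps filament ends, rose by 1.27 (adjusted p = 0.000263). ACTA1, the skeletal actin, fell by 2.30 (adjusted p = 1.25e-06) from 14518 ± 2839 to 2950 ± 979 CPM. NEB, the nebulin ruler, fell by 3.22 (adjusted p = 0.0135), with 9.44 to 340.3 CPM in Control, and CAP2, CFL2, FHOD3, TMOD3 and TPM4 fell by 0.39 to 0.99. In DOX, 1 of the 11 was higher and 4 were lower, beside 21.0% and 21.1% of all genes, and in MYO 0 and 5, beside 20.7% and 21.7%, with CAP2, CFL2, FHOD3 and TMOD3 lower in both. On plain totals, 2 were higher and 4 lower in RemoLV (ACTC1 and TMOD2, and ACTA1, NEB, CFL2 and CAP2), TMOD3 turned to 0.12, and 1 was higher and 1 lower in DOX and 2 and 0 in MYO, while over all 13552 genes the calls upward and downward numbered 6178 and 1038 for RemoLV, 5622 and 705 for DOX, and 5499 and 753 for MYO. Because the table exchanges RemoLV and Control, its names give the RemoLV differences from Control the opposite sign, for these genes and for the regulators.

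All 12 regulators of cardiac muscle genes were tested. In RemoLV against Control, 2 were higher and 5 lower, beside 23.1% and 24% of all genes. TBX5, a T-box factor, rose by 1.73 (adjusted p = 1.24e-05) to 108 ± 7.97 CPM, and NKX2-5, a cardiac homeobox factor, rose by 0.85 (adjusted p = 0.000496). TEAD4 and TEAD1, which bind MCAT motifs, fell by 1.99 (adjusted p = 0.000336) and 0.95 (adjusted p = 0.0195), and MYOCD, MEF2D and MEF2C fell by 1.02, 0.79 and 0.58. In DOX, 4 were higher and 3 lower, beside 21.0% and 21.1% of all genes, and in MYO 3 and 4, beside 20.7% and 21.7%. On plain totals these counts were 6 and 1 in DOX, where TEAD1 alone stayed lower, and 4 and 2 in MYO, where TEAD1 and MYOCD did, set against the plain-total counts over all genes given with the thin-filament genes. With TMM, GATA4, HAND2 and NKX2-5 were higher in both, and TEAD1, MYOCD and MEF2A lower. Against Hyper, 2 were higher in RemoLV (TBX5 and NKX2-5) and 2 lower (TEAD4 and MEF2C), beside 17.0% and 18.6%. Plain totals made this 3 higher, with GATA4 (0.39) added, and 1 lower (TEAD4, -0.92), beside 4118 and 964 of all genes, while MEF2C (-0.11) did not pass. On plain totals, 4 were higher and 1 lower in RemoLV against Control, TEAD4 at -1.40 being the lower one, while TEAD1 (-0.36), MYOCD (-0.44), MEF2D (-0.20) and MEF2C (-0.09) did not pass.

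Markers of other cells are given for the same libraries. The summed CPM of 9 matched genes that all cardiomyocytes express was 13071 to 13211 in RemoLV, 15764 to 19195 in DOX and MYO, 17405 to 18523 in Hyper and 17015 to 24232 in Control. That of 7 fibroblast genes was 5013 to 5669 in RemoLV, 2170 to 3919 in DOX and MYO, 925 to 1990 in Hyper and 1228 to 1885 in Control, with COL1A1 and DCN in RemoLV at 1921 ± 115 and 856 ± 59.2 CPM. In RemoLV against Control, 4 of the 7 were higher (COL1A1, COL1A2, FBLN1 and DCN), beside 23.1% of all genes, while PDGFRA (0.56), LUM (0.22) and TCF21 (-0.56) did not pass. That of 7 smooth muscle genes, which share tropomyosins with the heart, overlapped between all groups, from 556 to 1085 CPM. The part of these cells in the values of the members was not tested.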

How the data were processed

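Poly(A) RNA of left ventricular tissue from 19 pigs had been sequenced as read pairs from strand-specific libraries. The authors deposited raw counts per Ensembl gene for each library, made with STAR and HTSeq 0.11.1 (union mode, reverse strand) on Sscrofa11.1. They also deposited an expression table of log2 values with DESeq2 comparisons, whose fold change and p-value columns were not used. All 19 of its columns matched a count file by rank order (Spearman's rho of 1 after rounding to 6 decimals, at most 0.992 with any other), which showed that 8 columns carried another group's name. Where the names conflict, the titles of the count files were used.

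Counts were analysed in R 4.3.3 with edgeR 4.0.16: TMM scaling, filterByExpr, 1 model of 5 groups with no block, quasi-likelihood tests and Benjamini-Hochberg adjustment over 13552 genes, called at an adjusted p of at most 0.05. DESeq2 1.42.0 was an alternative, as were other scalings, filters, sets of libraries, and a block on the replicate number. Count ratios within a library used a pseudocount of 0.5 on each count and exact permutation tests. On simulated counts of 13347 genes for RemoLV against Control, 58% of genes changed by 1 on the log2 scale and 89% of those changed by 2 were recovered, with 4 false calls. The simulation changed far fewer genes than were called in the data, equally up and down and in RemoLV alone. These rates therefore do not describe the power or the false calls of the comparisons above.

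All members could be named in every comparison, genes of the thin-filament and regulator lists where they passed in RemoLV against Control or Hyper, 2 abundant markers of a cell type, and for each member the 3 genes with the highest Pearson correlation of log2 CPM (prior count 2). LAD1, PKP1, MYL7, DDX3Y, the fast troponins, GATA4, HAND2, MEF2A and the single markers beyond those 2 were named after their values were seen. The members, lists and comparisons were chosen with earlier results of these data known. Intervals and floors cover counting error only. The table's names and the plain totals are alternatives that concern every call.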

Additional observations from a re-analysis of the deposited data

Results flagged for a closer look

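Of 24 groups of 5 libraries in which a member's CPM or a ratio was examined for a library far from the others, 1 had such a library, where chance gives about 1 in 20. TNNC1 in DOX replicate 1 was at 4837 CPM, while the other 4 DOX libraries lay between 4432 and 4541, so the gap to its neighbour took up 0.731 of the group's range. Without this library TNNC1 still passed as lower than Control in DOX.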

How the results depend on the processing

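Each member's difference was recomputed with DESeq2 in place of edgeR, DESeq2 size factors, no filter, at least 10 counts in every library, only the groups compared, and each library left out. None of these reversed a call. A change of sign between values that both missed the threshold was not counted as a reversal, and the cause of the changes below was not tested. With at least 10 counts in every library, TNNI1 could not be fitted and RemoLV against Hyper had 3 members called in place of 5. Among all genes, 1937 were then called higher and 2182 lower of 11240 there, in place of 2300 and 2518 of 13552. That filter also ended the calls of TPM1 in RemoLV against Control and Hyper and of TPM3 in RemoLV against the other 4 groups (-0.19). With only the groups compared, TNNI1 had no value in Hyper against Control, and RemoLV against the other 4 groups was not run. That setting lost TPM1 (adjusted p = 0.175) and TPM3 (0.0604) in RemoLV against Control and TPM1 in RemoLV against Hyper (0.0752), and gained TNNT1 in RemoLV against Hyper (0.0429), TPM3 in MYO against Control (0.0465) and TPM1 in DOX and MYO against Hyper (0.0411).

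Over all genes, edgeR called 0 in Hyper against Control, where DESeq2 called 111 higher and 206 lower, edgeR with no filter 3 and 3, with only the groups compared 1 and 0, and under the table's names 2528 and 2328. With plain totals, chosen after seeing the data, TPM3 went to 0.42 in DOX, TPM2 to 0.39 in MYO, and TPM1 and TPM3 to 0.17 and 0.18 in RemoLV, all against Control. TPM3 went to 0.026 in RemoLV against the other 4 groups, and DOX and MYO against Hyper had 4 members called in place of 2. Of these 4, 3 were higher and 1 lower, beside 3894 and 760 of all genes. The ratio of group sums moved TNNI1/TNNT2 in DOX and MYO against Hyper from 3.31 to 1.79, beside 2.07 to 4.80 with 1 library left out.

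Under the table's names, the differences from Control became -6.85 (TNNI1), 0.17 (TNNT2) and 0.79 (TNNC1) in DOX. In MYO they became -6.02, 0.35 and 0.75, with TPM2 at 0.97. In RemoLV they became -10.04 (TNNI1), 0.83 (TNNT2), 1.26 (TNNC1), 0.36 (TPM1), 1.07 (TPM2) and 0.34 (TPM3). In Hyper they became -7.66 (TNNI1), 1.24 (TNNC1) and 0.82 (TPM2), and TNNT2 (0.83) and TPM1 (0.37) passed as well. RemoLV against Hyper gave -2.38 (TNNI1), 0.016 (TNNC1) and 0.25 (TPM2). RemoLV against the other 4 groups gave -4.90 (TNNI1), 0.49 (TNNT2), 0.56 (TNNC1) and 0.35 (TPM2), while TPM3 at 0.19 and TNNT1 at -0.04 no longer passed. Members called numbered 5 in MYO and 5 in Hyper against Control and 0 in RemoLV against Hyper. Of all 13552 genes, the same names gave 2003 higher and 1948 lower in MYO and 2528 and 2328 in Hyper against Control. In RemoLV against Hyper they gave 0 and 0. TNNI1/TNNT2 became -11.65 in RemoLV and -10.10 in Hyper against Control, -0.77 in DOX against MYO, -1.54 in RemoLV against Hyper and -5.51 in RemoLV against the other 16 libraries. TPM2/TPM1 became 0.70 in RemoLV and 0.45 in Hyper against Control, 0.25 in RemoLV against Hyper and 0.039 against the other 16. TPM2/TPM1 in DOX and MYO against Hyper stayed at 0.48 but missed the threshold (adjusted p = 0.0612), since the adjustment covers the other tests. TNNC1/TNNT2 in RemoLV against the other 16 became 0.035.

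Leaving out 1 library gave 3 to 5 members called in MYO and 0 to 1 in Hyper against Control, the higher counts without Control replicate 2, and 5 to 7 in RemoLV against Control and 4 to 7 in RemoLV against the other 4 groups. TNNI1/TNNT2 in RemoLV against the other 16 ranged from 7.93 to 8.53 and TPM2/TPM1 from -0.82 to -0.75, both missing the threshold without any 1 RemoLV library. In DOX and MYO against Hyper, TNNT1/TNNT2 ranged from 1.28 to 1.70, passing without MYO replicate 3, and TPM2/TPM1 from 0.45 to 0.50, missing the threshold without any 1 Hyper library.

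Libraries with the same replicate number did not deviate together (r from -0.25 to 0.24, median 0.007 over 32 pairs, 4 of them over 0.1), so the numbers do not pair the libraries. With the replicate block, TPM1 was at -0.35 in RemoLV against Control and -0.37 against Hyper and no longer passed, TPM3 was at -0.26 in MYO against Control and passed, so that members called numbered 5 in RemoLV against Control in place of 6, 4 in RemoLV against Hyper in place of 5, and 4 in MYO against Control in place of 3. The block changed no other member's call.

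With 3 libraries in 3 groups, TNNI1 at 0 to 12 reads in Control and TNNT1 spread widely there, small differences could not be resolved. Against the rest, drug, source study, time and DDX3Y cannot be told apart in DOX or MYO, nor treatment, wall and atrial markers in RemoLV.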

Other observations

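The remaining marker lists are given as values. The summed CPM of 5 endothelial genes was 648 to 727 in RemoLV, 754 to 1058 in DOX, 960.0 to 1002 in MYO, 749.9 to 871 in Hyper and 769.8 to 950.4 in Control, so the RemoLV-labelled libraries lay below all others. That of 6 macrophage genes was 242 to 255 in RemoLV, 189.5 to 406 in DOX, 169 to 271 in MYO, 155 to 231 in Hyper and 204 to 268 in Control, and these ranges overlapped except for RemoLV and Hyper. Against Control in RemoLV, 0 of 5 endothelial genes were higher and 2 lower, and 4 of 6 macrophage genes were higher and 1 lower, by edgeR's quasi-likelihood test, beside 23.1% higher and 24% lower of all genes tested.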
